A study of Mus musculus with 6 samples.

Results

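Transcripts of the cysteine-based protein phosphatases were examined in mouse N2A neuroblastoma cells after knockdown of Pax6. The genes were those whose symbols follow the Ptpr, Ptpn or Dusp series, that is the receptor-type tyrosine phosphatases, the non-receptor tyrosine phosphatases and the dual-specificity phosphatases. There were 61 such genes among the 19938 genes with a probe set of their own, 20 of the receptor type, 17 of the non-receptor type and 24 of the dual-specificity type, and each was read from its brightest probe set. Of these, 43 passed the filter on low values and were among the 11424 genes tested.

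Protein tyrosine phosphatases remove phosphate from tyrosine and so oppose tyrosine kinases. The receptor type spans the membrane and meets ligands, adhesion molecules and proteoglycans outside the cell, the non-receptor type is sorted inside the cell by its targeting domains, and the dual-specificity type also acts on phosphorylated serine and threonine. A branch of the dual-specificity type, the MAP kinase phosphatases, switches off the kinases ERK, JNK and p38, whereas a few tyrosine phosphatases, Ptprr among them, carry a kinase interaction motif that docks them on the same kinases. In neurons the receptor type is best known for axon growth, synapse formation and the biology of secretory granules.

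N2A is an established mouse neuroblastoma line. The Pax6 knockdown group was transiently transfected with 1.5 µg of a vector that makes a short hairpin RNA against Pax6 from a U6 promoter, and the control group with the same amount of a vector whose hairpin has no target. RNA was collected 3 days later, and 200 ng per sample was labelled for an Affymetrix array covering whole transcripts, with 3 arrays per group that the labels call biological replicates. Each array measured the whole culture, in which untransfected cells are not separated from transfected ones, and fewer cells that express a gene cannot be told apart from less of its RNA per cell. Values are deposited log2 summaries from robust multi-array averaging (RMA), and a fold change here is the log2 difference of knockdown minus control. Errors (SE, standard error) and two-sided adjusted p come from limma, and genes were called at 10% false discovery rate (FDR).

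Pax6, the targeted gene and a transcription factor of eye and brain development, had log2 values of 8.48, 8.30 and 8.50 in the knockdown arrays, against 8.79, 8.82 and 8.81 in the control arrays. The groups did not overlap, and the difference was -0.38 (SE 0.071, limma adjusted p = 0.0382). The call was lost under the variance filter and when knockdown replicate 3 or any 1 control array was left out (limma adjusted p 0.12 to 0.18), while the difference stayed between -0.42 and -0.32 with any 1 array left out. All 10 markers of sympathetic neuroblastoma that could be read passed the filter. At 10% FDR 4 of these were lower after knockdown, namely Isl1, Dbh, Chga and Chgb, and 0 were higher. Of all tested genes, 3.88% were lower. Dbh fell the most, at -1.08. Without a call, Hand2, Gata3 and Th had negative differences, and Phox2a, Stmn2 and Tubb3 positive ones (0.05, 0.03 and 0.12). The mean of the 10 ran from 11.18 to 11.28 in the knockdown arrays, against 11.46 to 11.50 in the control arrays. No haematopoietic marker of 5 passed the filter, and of the markers of other types only Pecam1 of 4 endothelial, Col1a1 and Col1a2 of 4 fibroblast, Mbp of 3 glial and Krt8 of 3 epithelial genes did, none of which passed the test. Whether the lower sympathetic markers bear on the results below was not tested.

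A single gene of the family, Ptprr, stood far from the rest. At 10% FDR, 2 of the 43 tested phosphatase genes were lower after Pax6 knockdown, Ptprr and Ptpn13, and 0 were higher, which is 4.65% of the family beside 6.67% of all tested genes (2.79% higher and 3.88% lower). The share called is thus close to that of all genes. At an unadjusted limma p under 0.05, 5 phosphatase genes were higher and 9 were lower, where 18.8% of all genes passed. With the replicate number as a block, limma called 5 phosphatase genes higher (Dusp19, Dusp3, Dusp8, Ptpn11 and Ptpn21) and 7 lower (Ptprr, Ptpn13, Ptprv, Ptprn, Ptprs, Ptpre and Ptpn7), where 17.9% of all genes were called, 8.96% higher and 8.91% lower. Ptprv, which is in both counts of lower genes, passed the low-value filter through its control arrays, so its direction is no independent evidence.

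**Figure D1:**
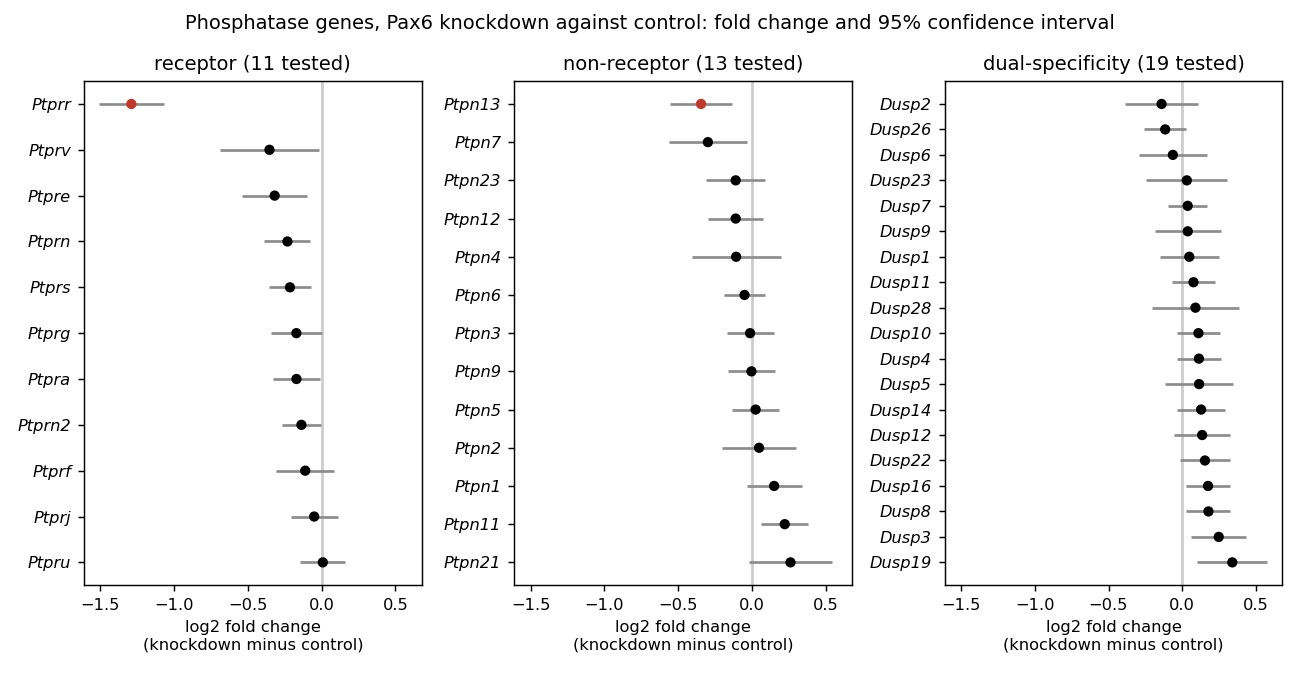
Log2 fold change (knockdown minus control, horizontal axis) of the 43 tested phosphatase genes, one panel per type, with points for the estimate from 3 arrays per group, bars for the 95% confidence interval and red for genes past 10% FDR. Ptprr at -1.29 stands apart, 10 of the 11 receptor genes lie below 0, and 16 of the 19 dual-specificity genes lie above 0. Ptprv, among the 10, passed the low-value filter through its control arrays.

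The signs of the fold changes leaned different ways by type, which is a description without a test. Among the receptor genes, 10 of 11 had a negative fold change, with a median of -0.17. Ptprv is among the 10 and passed the filter through its control arrays, so its sign is no independent evidence. Among the non-receptor genes, 8 of 13 were negative, with a median of -0.01. The count was 7 after array centring, where Ptpn9 turns positive, and with the mean of probe sets or array weights, where Ptpn3 does. That count ran from 5 to 10 with 1 array left out. Among the dual-specificity genes, 16 of 19 were positive, with a median of 0.11. The median of all tested genes was 0.02, with 6342 positive and 5082 negative. No gene of the dual-specificity type and 1 of each of the other types passed 10% FDR.

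Ptprr encodes a receptor-type phosphatase with a kinase interaction motif, known for dephosphorylating ERK. Its log2 values were 8.67, 8.31 and 8.47 in the knockdown arrays, against 9.79, 9.82 and 9.70 in the control arrays. The groups did not overlap, and the highest knockdown array lay more than a log2 unit under the lowest control array. The means were 8.48 ± 0.18 and 9.77 ± 0.06 (SD, n = 3 each), which is a difference of -1.29 in log2 units (95% confidence interval -1.51 to -1.07, SE 0.0944, limma adjusted p = 0.00166), a signal that fell by 59.1%. By replicate number the differences were -1.12, -1.51 and -1.23. The call held in all 15 alternatives in which Ptprr was tested, and it was not tested under the strictest low-value filter. Among the other members the difference farthest from 0 was that of Ptprv, at -0.35.

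Mouse Ptprr is annotated with several start sites, which are shown because the array reads the gene with 1 probe set and so cannot say which of its transcripts changed. RefSeq places 4 start sites on chromosome 10, the others 125535, 158895 and 158988 bases downstream of the first. The windows of 250 bases before the first 3 sites follow, from the RefSeq table of build GRCm38.p6, with the 35 bases next to the start in capitals. The window of the last site overlaps that of the third and is not printed.
Ptprr start site 1, chr10:116018113-116018362 (+ strand): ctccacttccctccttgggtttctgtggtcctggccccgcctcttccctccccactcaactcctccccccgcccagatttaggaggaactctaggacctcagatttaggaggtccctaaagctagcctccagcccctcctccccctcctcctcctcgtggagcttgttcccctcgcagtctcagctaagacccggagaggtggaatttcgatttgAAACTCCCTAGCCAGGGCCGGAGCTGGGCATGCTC
Ptprr start site 2, chr10:116143648-116143897 (+ strand): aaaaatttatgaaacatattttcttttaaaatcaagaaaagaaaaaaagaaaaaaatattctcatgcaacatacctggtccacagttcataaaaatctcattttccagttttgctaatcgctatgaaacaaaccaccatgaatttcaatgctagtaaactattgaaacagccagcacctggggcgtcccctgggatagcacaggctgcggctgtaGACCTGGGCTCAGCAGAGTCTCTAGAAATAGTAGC
Ptprr start site 3, chr10:116177008-116177257 (+ strand): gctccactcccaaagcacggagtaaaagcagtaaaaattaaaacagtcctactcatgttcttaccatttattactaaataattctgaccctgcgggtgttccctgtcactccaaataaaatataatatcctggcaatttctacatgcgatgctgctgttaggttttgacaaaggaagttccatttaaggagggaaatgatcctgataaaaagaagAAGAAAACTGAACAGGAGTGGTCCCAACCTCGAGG
The windows differ in base composition. The GC content was 60.4% before the first site, lower before the others (40.0% at the third and 44.4% at the last), and 52.4% in the median of all 32851 windows.

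The kinase interaction motif is shared by 3 tyrosine phosphatases, Ptprr, Ptpn7 and Ptpn5. Ptpn7, a phosphatase known from lymphoid cells that binds ERK and p38, read 8.58, 8.10 and 8.35 in the knockdown arrays, against 8.63, 8.67 and 8.63 in the control arrays. Its groups did not overlap, but replicate 1 of the knockdown lay only just under the control arrays. The log2 fold change was -0.30 (SE 0.114, limma adjusted p = 0.206, 0.0923 with the replicate block, and 0.0641 without knockdown replicate 1). Ptpn5, the striatum-enriched phosphatase STEP that acts on ERK and Fyn, read 7.48, 7.55 and 7.62 in the knockdown arrays, against 7.62, 7.45 and 7.51 in the control arrays. Those groups overlapped, at 0.02 (95% confidence interval -0.14 to 0.19, limma adjusted p = 0.904), and only 3 of its 6 arrays exceeded the low-value filter, close to the level where RMA compresses differences.

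**Figure D2:**
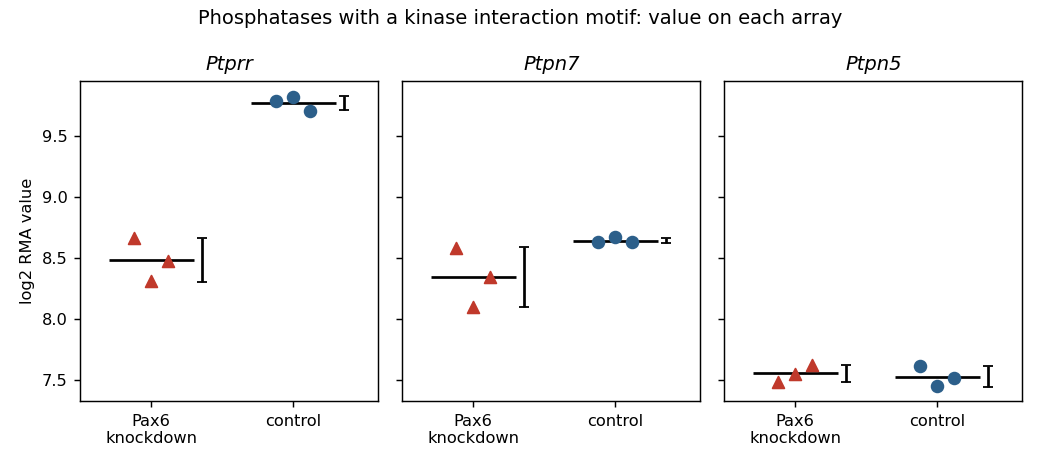
Log2 RMA value (vertical axis) of the 3 phosphatases with a kinase interaction motif on each array, knockdown as triangles and control as circles, with lines for group means and bars for ± 1 SD (n = 3). The Ptprr arrays separate by over 1 log2 unit, the Ptpn7 arrays separate narrowly, and the Ptpn5 arrays overlap.

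Ptpn13 was the second gene called. It encodes a very large cytoplasmic phosphatase with a FERM domain and several PDZ domains, and its human counterpart binds the death receptor Fas. Its log2 values were 9.07, 8.83 and 9.01 in the knockdown arrays, against 9.26, 9.22 and 9.46 in the control arrays, without overlap. The means were 8.97 ± 0.126 and 9.31 ± 0.125 (SD, n = 3 each), and the log2 fold change was -0.34 (SE 0.0906, limma adjusted p = 0.0902, and 0.0254 with the replicate block). The call was lost when any 1 array other than knockdown replicate 1 was left out, with limma adjusted p up to 0.254, while the fold change stayed between -0.40 and -0.27. Other filters ended it too, namely none at all (limma adjusted p = 0.19), the 25th percentile filter (limma adjusted p = 0.138) and a variance filter (limma adjusted p = 0.225). RefSeq gives Ptpn13 1 start site, on chromosome 5, and the 250 bases before it are shown to set beside those of Ptprr, with the last 35 again in capitals.
Ptpn13, chr5:103424942-103425191 (+ strand): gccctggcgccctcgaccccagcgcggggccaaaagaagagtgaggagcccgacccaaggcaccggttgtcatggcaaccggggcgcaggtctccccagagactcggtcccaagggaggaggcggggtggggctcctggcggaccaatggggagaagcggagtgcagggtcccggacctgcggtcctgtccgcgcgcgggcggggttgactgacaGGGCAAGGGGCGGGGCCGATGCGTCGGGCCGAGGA
That window holds 72.4% GC, well above the median window.

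Of the 10 tested receptor phosphatases other than Ptprr, all but Ptpru had small negative differences, and 0 passed 10% FDR when 3 arrays were compared with 3 without a block. Ptprv, among these, was tested only through its control arrays. Among all 11 tested, the knockdown arrays lay wholly below the control arrays for 6 and wholly above for 0. In the whole family 9 genes were wholly below and 7 wholly above, where 25.6% of all tested genes had groups that did not overlap, 11.7% below and 13.9% above. The 6 were Ptprr, Ptprs, Ptprn, Ptpre, Ptpra and Ptprn2. Ptprs, of the LAR type, is a neuronal receptor for heparan and chondroitin sulfate proteoglycans. It read 10.90, 10.88 and 10.87 in the knockdown arrays, against 11.05, 11.18 and 11.07 in the control arrays. The 3 knockdown values were close together and under every control value. Its log2 fold change was -0.21 (SE 0.0614, limma adjusted p = 0.109, and 0.0576 with the replicate block). The related Ptprf, LAR itself, had overlapping groups at -0.11 (95% confidence interval -0.31 to 0.09).

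Ptprn and Ptprn2 encode the pseudophosphatases IA-2 and phogrin, which lack normal phosphatase activity and sit in the membrane of dense-core secretory granules. Ptprn read 12.01, 12.06 and 11.92 in the knockdown arrays, against 12.20, 12.31 and 12.19 in the control arrays. Every knockdown array was below every control array, at -0.23 (SE 0.0673, limma adjusted p = 0.113, and 0.0401 with the replicate block). Ptprn2 read 9.41, 9.39 and 9.37 in the knockdown arrays, against 9.48, 9.56 and 9.55 in the control arrays. The separation was again complete but narrow, at -0.14 (SE 0.057, limma adjusted p = 0.249, and 0.162 with the replicate block). Of the sympathetic markers, the granule cargo genes Chga and Chgb were lower, at log2 fold changes of -0.30 (limma adjusted p = 0.0463) and -0.48 (limma adjusted p = 0.009). Whether these differences go with those of Ptprn and Ptprn2, neither of them called without the block, was not tested.

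Ptpra and Ptpre are the short receptors known for activating Src family kinases by removing an inhibitory phosphate. Ptpre read 8.62, 8.38 and 8.71 in the knockdown arrays, against 8.79, 8.97 and 8.91 in the control arrays. Its groups did not overlap, at -0.32 (SE 0.0958, limma adjusted p = 0.123, and 0.0655 with the replicate block). Ptpra read 10.72, 10.60 and 10.71 in the knockdown arrays, against 10.89, 10.90 and 10.74 in the control arrays. Control replicate 3 came close to the nearest knockdown arrays, and the log2 fold change was -0.17 (SE 0.0702, limma adjusted p = 0.244, and 0.148 with the replicate block).

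Ptprv, a receptor known from osteoblasts in rodents, read 7.69, 7.19 and 7.50 in the knockdown arrays, against 7.92, 7.58 and 7.95 in the control arrays. Its groups overlapped, because control replicate 2 was below knockdown replicate 1. The log2 fold change was -0.35 (SE 0.144). Ptprv exceeded the filter on 1 knockdown array and 3 control arrays, so it was tested only because its control values were high, and its difference is given as a description. Of the remaining receptor genes, the carbonic anhydrase-like Ptprg was at -0.17 (95% confidence interval -0.34 to 0.00), and Ptprj, a growth-inhibiting receptor, at -0.05 (-0.21 to 0.11). The adhesion receptor Ptpru was the only positive one, at 0.01 (-0.14 to 0.16).

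**Figure D3:**
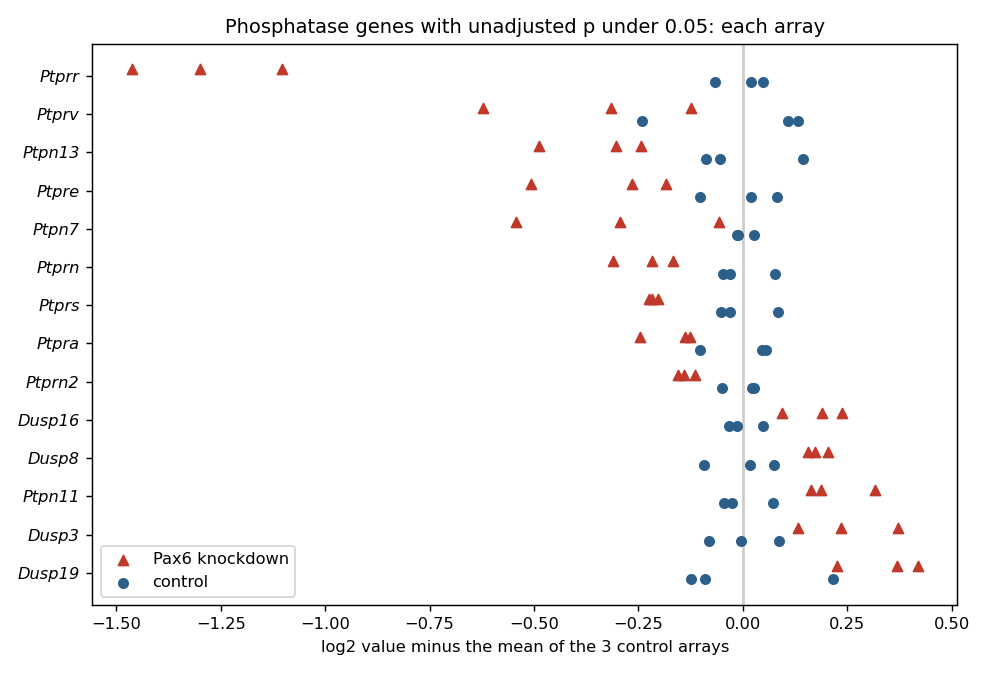
Deviation of every array from the control mean in log2 units (horizontal axis) for the 14 phosphatase genes with an unadjusted limma p under 0.05, knockdown as triangles and control as circles. The knockdown arrays of Ptprr lie far to the left, those of the other 8 lower genes lie closer to 0, and the 5 higher genes include 4 of the dual-specificity type.

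Among the non-receptor genes other than Ptpn13, the SH2 domain phosphatases had fold changes of opposite sign. Ptpn11, or SHP2, which carries growth factor signals towards RAS and ERK, read 10.62, 10.59 and 10.75 in the knockdown arrays, against 10.38, 10.40 and 10.50 in the control arrays. All knockdown arrays were above all control arrays, at 0.22 (SE 0.0683, limma adjusted p = 0.13, and 0.0437 with the replicate block). Ptpn6, or SHP1, its relative of blood cells, was at -0.05 (95% confidence interval -0.19 to 0.09) with 5 of 6 arrays above the filter. Ptpn1, or PTP1B, which dephosphorylates the insulin receptor, was at 0.15 (-0.04 to 0.34), and Ptpn2, which acts on JAK kinases and STATs, at 0.05 (-0.20 to 0.30).

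The other tested FERM domain genes lay on both sides of 0. Ptpn21 was at 0.26 (95% confidence interval -0.02 to 0.54, limma adjusted p = 0.295, and 0.0879 with the replicate block), Ptpn4 at -0.11 (-0.41 to 0.20) and Ptpn3 at -0.01 (-0.17 to 0.15). The intervals of Ptpn21 and Ptpn4 were among the widest of the non-receptor type. Ptpn12, which acts on the adhesion scaffold p130Cas, and Ptpn23, a partner of the endosomal sorting machinery, were both at -0.11, and Ptpn9, with its SEC14 lipid-binding domain, was at 0.00 (-0.16 to 0.16). All 6 of these had an unadjusted p that missed 0.05.

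The 10 classical MAP kinase phosphatases all passed the filter, and 8 of them had a positive fold change, where 55.5% of all tested genes were positive. At 10% FDR 0 of the 10 passed, beside 6.67% of all tested genes. They fall into 3 groups by what they switch off and where. The 3 that act mainly on JNK and p38, Dusp8, Dusp10 and Dusp16, each had all knockdown arrays above all control arrays, as did 13.9% of all tested genes. The other 7 had overlapping groups, but Dusp4 and Dusp5 had fold changes of about the size of that of Dusp10, and the difference between the groups was not tested. Dusp8 read 10.45, 10.50 and 10.47 in the knockdown arrays, against 10.20, 10.31 and 10.37 in the control arrays, for 0.18 (SE 0.0645, limma adjusted p = 0.188, and 0.0942 with the replicate block). Dusp16 read 10.59, 10.45 and 10.54 in the knockdown arrays, against 10.34, 10.40 and 10.32 in the control arrays, for 0.17 (SE 0.0638, limma adjusted p = 0.189, and 0.121 with the replicate block). Both separations were complete and narrow. Dusp10 was at 0.11 (95% confidence interval -0.04 to 0.25).

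The ERK-directed cytoplasmic phosphatases and the nuclear, inducible ones had overlapping groups throughout. Dusp6, a feedback inhibitor that ERK signalling itself induces, read 12.65, 12.35 and 12.47 in the knockdown arrays, against 12.69, 12.53 and 12.43 in the control arrays. Its log2 fold change was -0.06 (95% confidence interval -0.29 to 0.16). Dusp7 and Dusp9, of the same cytoplasmic group, were both at 0.04. Of the nuclear group, Dusp4 was at 0.11 (-0.04 to 0.26), Dusp5 at 0.11 (-0.12 to 0.35), Dusp1 at 0.05 (-0.15 to 0.25) and Dusp2 at -0.14 (-0.39 to 0.11).

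The atypical dual-specificity phosphatases lack the docking domain of the MAP kinase phosphatases. Dusp19, which binds the JNK pathway kinase MKK7, had the highest positive fold change of the 43 tested genes. It read 10.52, 10.33 and 10.47 in the knockdown arrays, against 10.32, 9.98 and 10.01 in the control arrays, where control replicate 1 all but met knockdown replicate 2. The log2 fold change was 0.34 (SE 0.102, limma adjusted p = 0.123, and 0.0249 with the replicate block). Dusp3, or VHR, known in human cells for acting on ERK and JNK, read 10.90, 10.66 and 10.76 in the knockdown arrays, against 10.61, 10.52 and 10.45 in the control arrays. Its groups did not overlap, at 0.25 (SE 0.0804, limma adjusted p = 0.146, and 0.0452 with the replicate block). Of the 9 tested, 8 were positive. Dusp11, an RNA phosphatase, was wholly above at 0.08, and Dusp26 was wholly below at -0.12 (95% confidence interval -0.26 to 0.03), and the remaining Dusp12, Dusp14, Dusp22, Dusp23 and Dusp28 ran between 0.03 and 0.15 with overlapping groups.

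Among the matched promoters, the perfect cAMP response element TGACGTCA, searched on both strands, occurred before 4 phosphatase genes, and the sites are shown because each of these genes is described above. It was in 4 of 66 windows of 250 bases (6.06%) from the 49 members with a RefSeq promoter, beside 1.55% of all windows. The difference rests on 4 windows, some genes have more than 1 window, and it was not tested. The stretches follow, from build GRCm38.p6, with the element in capitals.
Dusp8, chr7:142095325-142095362 (- strand): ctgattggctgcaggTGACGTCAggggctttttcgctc
Dusp8, chr7:142095369-142095406 (- strand): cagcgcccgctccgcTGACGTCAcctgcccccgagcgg
Dusp1, chr17:26508593-26508630 (- strand): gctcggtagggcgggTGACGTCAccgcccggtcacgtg
Ptpn11, chr5:121191442-121191479 (- strand): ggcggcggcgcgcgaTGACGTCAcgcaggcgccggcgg
Ptpru, chr4:131838297-131838334 (- strand): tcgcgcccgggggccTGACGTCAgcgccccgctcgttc
Dusp8 holds 2 copies, at 63 and 107 bases before its start. Of the 4 genes, Dusp8 and Ptpn11 had complete separation upward, as did 13.9% of all tested genes, whereas Dusp1 and Ptpru had overlapping groups. The tested members Dusp3, Dusp10, Dusp11, Dusp16 and Dusp19 were also wholly above and are not among the 4. The limma adjusted p of each of the 4 exceeded 0.1 when 3 arrays were compared with 3 without a block. Whether the element bears on these differences was not tested. The palindromic homeodomain site TAATNNNATTA, the kind that paired-class proteins bind as dimers, was in 0.463% of all windows and in 0 of the 66, which says only that these letters are absent from these windows.

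The signs of the type medians were the same in each replicate for 2 of the 3 types. For differences taken by replicate number, the receptor median was -0.15, -0.25 and -0.19 in replicates 1, 2 and 3. The receptor genes include Ptprv, which was tested only through its control arrays. The dual-specificity median was 0.10, 0.05 and 0.10, and the non-receptor median was 0.02, -0.09 and -0.02. The median of all tested genes was 0.04, -0.02 and 0.03, so the replicates differed as a whole too.

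**Figure D4:**
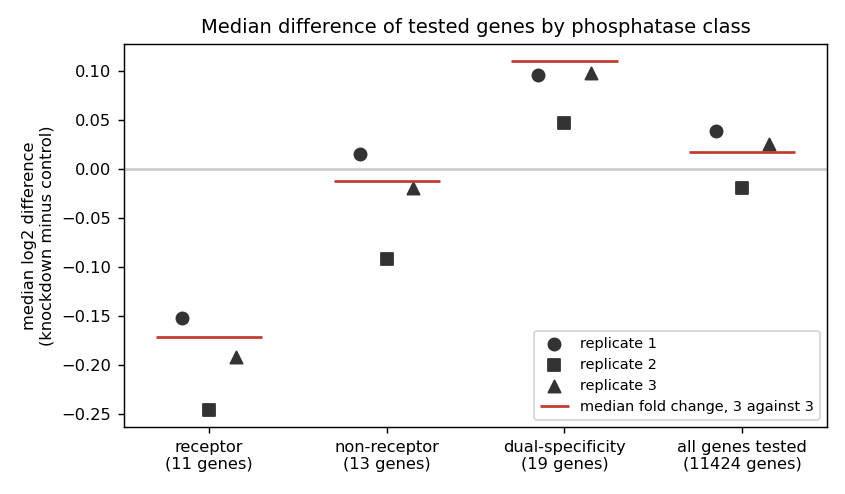
Median log2 difference (knockdown minus control, vertical axis) over the tested genes of each phosphatase type and over all 11424 tested genes, with symbols for the 3 replicate numbers and a red line for the median fold change of 3 arrays against 3. The receptor median is below 0 and the dual-specificity median above 0 in every replicate. The receptor genes include Ptprv, which passed the low-value filter through its control arrays.

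The 18 genes under the filter are accounted for by type. They were 9 receptors (Ptprb, Ptprc, Ptprd, Ptprh, Ptprk, Ptprm, Ptpro, Ptprq and Ptprz1), 4 of the non-receptor type (Ptpn14, Ptpn18, Ptpn20 and Ptpn22) and 5 of the dual-specificity type (Dusp13, Dusp15, Dusp18, Dusp21 and Dusp27). Their differences ran between -0.18 for Ptprb, the endothelial phosphatase, and 0.19 for Ptpro, a receptor of kidney podocytes and neurons. Of the 9 receptors, 6 were positive and 3 negative, where 1 of the 11 above the filter was positive. Ptpn20 had the lowest p when no filter was applied, at 0.18 with a limma adjusted p = 0.303. Ptprc, or CD45, which marks blood cells, read between 6.06 and 6.52 in the knockdown arrays, against 6.09 to 6.46 in the control arrays, all below the array medians of 7.49 to 7.59.

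For 5 members the array carried more than 1 probe set. The second probe set of Dusp8 read 8.62, 8.58 and 8.65 in the knockdown arrays, against 8.26, 8.40 and 8.41 in the control arrays. It too separated completely, at 0.26, with a limma adjusted p = 0.195 over all probe sets. The second probe set of Ptpn2 was at -0.04, where the one used was at 0.05. For Ptpn3 the one used was at -0.01, the others ran from -0.03 to 0.22, and the mean of its probe sets gave 0.08. The further probe sets of Dusp12 (0.09) and Ptprj (-0.06) kept the sign of the ones used. All of these had overlapping groups. The 33 member probe sets outside the fit were those of the 18 genes under the filter and the further ones of Dusp8, Ptpn2, Ptpn3, Ptprj and Dusp12. Of the 33, 0 passed 10% FDR. Calls were few throughout without a filter, where 68 of 19938 genes were higher and 177 lower.

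The partners that these phosphatases meet were read from 4 lists. Of the ligands and partners of receptor phosphatases, 17 of 37 were tested and 5 were lower at 10% FDR and 0 higher, where 3.88% of all tested genes were lower and 2.79% higher. The median was -0.12 beside 0.02 for all tested genes. Pleiotrophin (Ptn), a secreted ligand of the receptor Ptprz1 and of syndecans, read 10.28, 10.37 and 10.48 in the knockdown arrays, against 11.00, 11.11 and 10.97 in the control arrays. The groups did not overlap, at -0.65 (SE 0.0749, limma adjusted p = 0.00905), and the call held whichever array was left out. Its main phosphatase receptor, Ptprz1, was under the filter. The syndecans Sdc3 at -0.39 (limma adjusted p = 0.0297) and Sdc1 at -0.30 (limma adjusted p = 0.0578) carry the heparan sulfate that Ptprs binds. The proteoglycan Ncan at -0.29 (limma adjusted p = 0.0932) and the LAR-binding scaffold liprin Ppfia2 at -0.30 (limma adjusted p = 0.0956) were nearer the threshold, and each of these 4 lost its call when some single array was left out, Ppfia2 with any.

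Known substrates and regulators came next. Of the MAP kinase modules, 27 of 30 were tested, with a median of 0.04, and 1 was higher and 0 lower, a share near the 2.79% higher and 3.88% lower of all tested genes. With the replicate block 4 were higher and 1 lower, where 8.96% and 8.91% of all tested genes were. The gene called without the block, Mapk10, encodes the neuronal JNK3 and read 12.07, 11.99 and 12.04 in the knockdown arrays, against 11.70, 11.80 and 11.81 in the control arrays, at 0.26 (SE 0.0612, limma adjusted p = 0.0682). The call was lost when any array other than knockdown replicate 2 was left out. Of the cytoplasmic tyrosine kinases and STATs, 14 of 18 were tested and 0 passed 10% FDR in limma, with 1 higher and 0 lower at an unadjusted p under 0.05. This was Jak2, at 0.35 (SE 0.117, limma adjusted p = 0.155, and 0.0343 with the replicate block), followed by Abl1 at 0.14 (limma adjusted p = 0.394).

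Other phosphatases, most of them cysteine-based, lie outside the Ptpr, Ptpn and Dusp series. The list read here also holds the Eya genes, which are not cysteine-based and stay in its counts. Of the 31 genes on this list, 24 were tested and 21 were positive, beside 55.5% of all tested genes, at a median of 0.08. At 10% FDR 3 were higher and 0 lower, where 2.79% of all tested genes were higher and 3.88% lower, and with the replicate block 6 were higher and 1 lower, where 8.96% and 8.91% were. Cdc14b, which opposes cyclin-dependent kinases, was at 0.35 (limma adjusted p = 0.0526), the low molecular weight phosphatase Acp1 at 0.24 (limma adjusted p = 0.0805) and the eyes absent homologue Eya3 at 0.22 (limma adjusted p = 0.0891). Each of the 3 lost its call when some single array was left out.

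**Figure D5:**
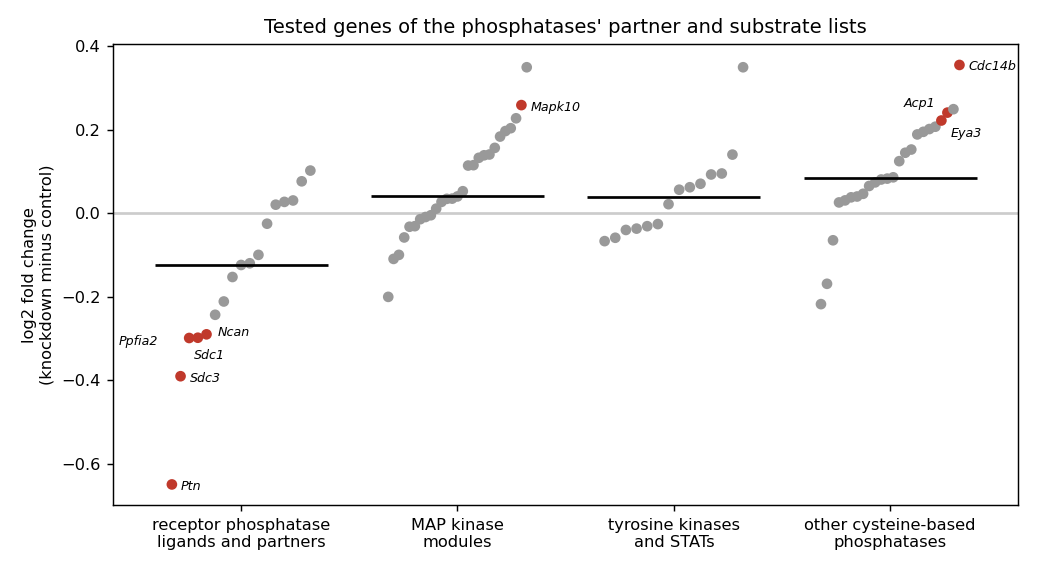
Log2 fold change (knockdown minus control, vertical axis) of each tested gene in the 4 lists, ordered within a list, with black lines for list medians and red points for genes past 10% FDR. The ligand and partner list holds the 5 lower genes, down to Ptn at -0.65, and the other lists hold the 4 higher genes. The list labelled as other cysteine-based phosphatases includes Eya3, which is not cysteine-based.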

How the data were processed

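RNA of 3 Pax6 knockdown and 3 control cultures was measured on whole-transcript arrays. The authors deposited log2 values per probe set, made by RMA with quantile normalization, and per the labels limma was also used. Versions, annotation build and the level of their filter on low genes are not given in the sources used here. A change in total RNA is hidden by quantile normalization, and small differences at low signal are compressed by RMA. Of 35556 probe sets, with 0 missing values, 21789 had 1 symbol in the platform annotation. All 61 member identifiers were found in the RefSeq table under the same symbol, and 49 had a promoter there. Precision is limited by the number of arrays.

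The brightest probe set of each gene was kept, and a gene was tested if 3 or more of its 6 array values exceeded the array-wide median. The groups were compared in limma 3.58.1 (lmFit and eBayes, R 4.3.3), two-sided, with Benjamini-Hochberg adjustment over 11424 genes at 10% FDR. Tables and figures used Python 3.11.15, pandas 2.3.3 and matplotlib 3.10.9. The procedure was tested on simulated data with independent noise on each array, which lack the correlation by replicate number given below. Full statistics went to Ptprr and to members past 10% FDR or with an unadjusted p under 0.05, other members were given by fold change and interval or by counts, and each list gave its genes past 10% FDR or up to 2 with the lowest p. The members, lists and rules were chosen with earlier results of these data known.

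Groups share replicate numbers in the labels. Deviations from group means correlated at 0.57, 0.32 and 0.23 for the same number, all above 0.1. Samples of one number were therefore treated as pairs in an alternative with a replicate block. Knockdown replicate 2 and control replicate 3 also correlated, at 0.18, and no source says what a number marks. The other alternatives changed the low-value filter, the scaling, the probe set rule, array weights, the prior or the arrays included.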

Additional observations from a re-analysis of the deposited data

How the results depend on the processing

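In the 16 alternatives none of the 14 phosphatase genes with an unadjusted p under 0.05 changed sign. Of members with smaller differences, Dusp1, Dusp6, Dusp9, Dusp23, Dusp28, Ptpn2, Ptpn3, Ptpn4, Ptpn5, Ptpn9 and Ptpru did in at least 1, and only Ptpn9 did so under a scaling, array centring. Over the alternatives that tested all 43 genes of the main test, 10 or 11 of their receptor genes were negative, with Ptprv in each count. Among the same genes, 13 to 17 of the dual-specificity type were positive and 5 to 10 of the non-receptor type negative. The 9 receptors under the filter, 6 of them positive, are not in these counts. The count of phosphatase genes past 10% FDR moved more. Against 0 higher and 2 lower, the replicate block gave 5 higher and 7 lower, a second quantile normalization 2 and 6, the trended and robust prior 2 and 4, and array weights 12 and 10, with knockdown replicate 3 weighted 5.38 and knockdown replicate 2 at 0.313. The 75th percentile filter gave 5 higher, and array centring 1 higher. No filter, the 25th percentile filter and the variance filter each gave 1 lower, Ptprr, and the variance filter a member median of -0.064 beside 0.01. Leaving out 1 array gave 0 to 6 higher, the most without knockdown replicate 2, and 1 to 3 lower. It gave Pax6 fold changes of -0.42 to -0.32 and a limma adjusted p over 0.1 without knockdown replicate 3 or any 1 control array, the highest 0.18, as did the variance filter (-0.38, limma adjusted p = 0.143). In the replicate block Pax6 had a limma adjusted p = 0.0184. The receptor median was negative, -0.12 to -0.23, and the dual-specificity median positive, 0.08 to 0.13, under each setting. The cause of these shifts was not tested. Signals near the array median limit Ptpn5, Ptpn6, Ptprv and the 18 genes not tested.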
